A study of Mus musculus with 2 samples.

Results

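Cohesin is the ring-shaped protein complex that holds sister chromatids together, and its 9 subunit genes examined here were chosen by symbol: the meiotic subunits *Smc1b*, *Rec8*, *Rad21l* and *Stag3*, and the mitotic or shared subunits *Smc1a*, *Smc3*, *Rad21*, *Stag1* and *Stag2*. All 9 were found among the 39695 gene entries, and all 9 had a mean RPKM of at least 1. RNA from whole testes of 9-day-old (P9) males was sequenced, with 1 library of controls (*Bcas2* F/-) and 1 of mutants (*Bcas2* F/-;Vasa-Cre, labelled Bcas2F/-;V-cre). Both genotypes carried 1 floxed and 1 deleted *Bcas2* allele, and only the second carried Vasa-Cre, a transgene that drives recombination in germ cells, so the contrast sets loss of *Bcas2* in germ cells against animals that already lack 1 copy. The labels give C57BL/6 as the strain of both, whereas the line was kept on a mixed background according to the methods, and how many mice went into a library is not given in the sources used here. With 1 library per genotype no difference has a replicate check within these data, and no test of the genotypes was possible. The intervals below cover counting error only. In replicate testes of this age, the paper's real-time RT-PCR found *Smc1b* RNA significantly lower in mutants. The other subunits were not among the genes it reported there.

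A cohesin ring is built from an SMC1 and an SMC3 protein, a kleisin that closes the ring, and a STAG protein that binds the kleisin. Dividing cells use SMC1A, SMC3, RAD21 and STAG1 or STAG2. Germ cells that enter meiosis make additional subunits, in which SMC1B takes the place of SMC1A, REC8 and RAD21L take that of RAD21, and STAG3 takes that of STAG1 and STAG2, whereas SMC3 serves both kinds of ring. Meiotic cohesin forms the base of the chromosome axes on which homologous chromosomes pair and recombine.

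Read counts were recovered from the RPKM values, in which each read of a gene adds an equal step. Counted reads numbered 19918750 for control and 19331687 for mutant testes. *Bcas2*, the targeted gene, had an RPKM of 39.5 and 25.7, from 1410 and 888 reads, and a log2 ratio of RPKM + 1 of −0.60, in RNA that also comes from somatic cells without Cre. Of 6 pachytene genes, 2 averaged 1 RPKM or more, with a summed RPKM of 14.5 and 14.1 over the list, most of it from *Hspa2* (11.4 and 11.8). Of 6 spermatid genes, 2 averaged 1 RPKM or more, with a summed RPKM of 3.27 and 5.21.

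All 4 meiotic subunits had lower RNA levels in mutant than in control testes, and *Smc1b* was the only subunit more than 1.5-fold lower. RPKM is the number of reads scaled to the length of the gene and the depth of the library. Of the 14831 genes whose RPKM averaged 1 or more over the libraries, 46.3% were lower by any amount, 1.69% were lower by over 1.5-fold and 0.378% by over 2-fold. The difference is given as the log2 ratio of RPKM + 1, mutant over control, unless stated otherwise. The median over the meiotic subunits was −0.41, with a range from −1.11 to −0.14, and the median over the mitotic or shared subunits was −0.08, with 4 lower and 1 higher and a range from −0.10 to 0.12. The median over all genes tested was 0.02. The summed RPKM of the meiotic subunits was 89.7 in control and 57.8 in mutant testes, whereas that of the mitotic or shared subunits was 503 and 486.

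**Figure D1:**
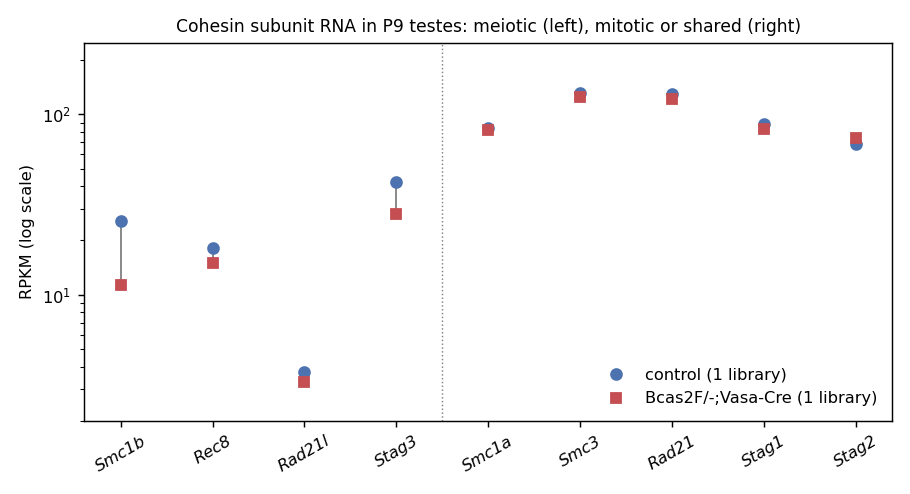
RPKM on a log axis of each cohesin subunit in the control library (circles) and the Bcas2F/-;Vasa-Cre library (squares), meiotic subunits left and mitotic or shared subunits right of the dotted line. Every meiotic subunit lies below every mitotic or shared one, and the widest gap on this log axis is that of Smc1b, with an RPKM of 25.6 and 11.3.

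In the control library the order of levels, in RPKM and therefore per length, was *Smc3* (131), *Rad21* (130), *Stag1* (89.0), *Smc1a* (84.3), *Stag2* (68.2), *Stag3* (42.1), *Smc1b* (25.6), *Rec8* (18.2) and *Rad21l* (3.73). *Smc3* and *Rad21* were 1.01-fold apart and *Stag1* and *Smc1a* 1.06-fold, and the order of such neighbours rests on the gene lengths used. In the mutant library *Smc1b* (RPKM of 11.3) stood below *Rec8* (15.1), the reverse of their order in the control. The mitotic or shared subunits kept their order in both libraries.

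The starts of the genes with the largest differences, and of *Smc1a* for comparison, are shown as the 250 bases before and 50 bases after the RefSeq start (GRCm38.p6), read on the strand of the gene. Capitals mark the letters TCCCGC on either strand, the core recognised by E2F factors, which regulate cell cycle and germline genes, and CACGTG, the E-box bound by MYC and MAX family factors.
Smc1b, chr15:85131908-85132207, minus strand: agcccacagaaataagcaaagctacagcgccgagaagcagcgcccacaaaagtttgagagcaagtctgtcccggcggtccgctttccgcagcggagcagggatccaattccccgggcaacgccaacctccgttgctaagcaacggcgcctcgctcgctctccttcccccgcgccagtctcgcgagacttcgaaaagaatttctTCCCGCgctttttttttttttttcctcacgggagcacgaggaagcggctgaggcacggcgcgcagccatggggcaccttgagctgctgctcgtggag
Stag3, chr5:138280259-138280558, plus strand: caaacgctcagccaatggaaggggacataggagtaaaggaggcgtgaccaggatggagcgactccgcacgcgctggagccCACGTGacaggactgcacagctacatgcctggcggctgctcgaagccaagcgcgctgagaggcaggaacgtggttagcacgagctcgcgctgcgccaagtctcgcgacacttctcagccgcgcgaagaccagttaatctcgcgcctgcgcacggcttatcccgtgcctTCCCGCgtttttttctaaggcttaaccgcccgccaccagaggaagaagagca
Rec8, chr14:55617916-55618215, plus strand: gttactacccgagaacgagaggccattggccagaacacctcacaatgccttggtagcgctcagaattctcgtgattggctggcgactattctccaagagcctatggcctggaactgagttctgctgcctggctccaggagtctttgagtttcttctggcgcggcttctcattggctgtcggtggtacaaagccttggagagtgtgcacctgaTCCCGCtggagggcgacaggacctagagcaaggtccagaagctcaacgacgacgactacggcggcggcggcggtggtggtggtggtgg
Smc1a, chrX:152016178-152016477, plus strand: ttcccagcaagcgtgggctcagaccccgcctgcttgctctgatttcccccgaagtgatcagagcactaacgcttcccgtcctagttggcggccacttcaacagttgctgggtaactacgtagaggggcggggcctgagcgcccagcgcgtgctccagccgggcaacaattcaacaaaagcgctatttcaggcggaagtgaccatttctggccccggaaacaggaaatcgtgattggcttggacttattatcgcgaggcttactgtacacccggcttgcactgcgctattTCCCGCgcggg
Windows were found for 7 of the 9 subunits, with *Rad21* and *Stag2* missing. TCCCGC occurred in 6 of them, 3 meiotic (*Smc1b*, *Stag3*, *Rec8*) and 3 mitotic or shared (*Smc1a*, *Smc3*, *Stag1*), against 20.0% of the 32817 windows of all genes and 47.7% of the 9934 windows with at least 55% GC and a CpG observed over expected of at least 0.6. The E-box occurred only in the window of *Stag3*, against 7.15% of all windows and 11.5% of those rich in GC and CpG. CNCCTCAG, a motif described for the meiotic entry factor STRA8, occurred in none of the 7, against 7.94% and 9.88%. The GC content of the 3 meiotic windows with TCCCGC was 60.0% (*Smc1b*), 61.3% (*Stag3*) and 58.3% (*Rec8*), above the median of 52.7% over all windows. That of the 3 mitotic or shared windows was also above it, at 58.3% (*Smc1a*), 65.0% (*Smc3*) and 73.7% (*Stag1*). The window of *Rad21l* had 29.0% GC and no match. Its longest annotated transcript, of 1659 bases, is coding over its full length, so its window ends within the coding sequence and does not show where transcription starts. The GENCODE starts of *Stag3* and *Stag1* lie outside their RefSeq windows.

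The SMC1 position held the largest difference. *Smc1b* encodes the meiotic SMC1 protein, needed for cohesion and axis length in spermatocytes, and lies at chr15:85064689-85131964 (GRCm38, minus strand), with 25 exons in its longest transcript. Its RPKM was 25.6 in control and 11.3 in mutant testes, from 1031 and 441 reads, so the level was 55.9% lower. The recovered reads of a subunit rest on the transcript length they imply, and those of *Smc1b* and *Rec8* could be another multiple of the smallest pair that gives their RPKM, which would change their intervals and not their RPKM. The log2 ratio was −1.11, and without a pseudocount −1.18 with a 95% Clopper-Pearson counting interval from −1.35 to −1.02. It ranked 40th from the lowest of the 14831 genes tested, and only 7 of the 8670 genes that averaged 10 RPKM or more, *Smc1b* included, were as low. *Smc1a*, the ubiquitous SMC1 gene at chrX:152016428-152062694 (plus strand), had an RPKM of 84.3 and 81.8 from 2476 and 2330 reads. Its log2 ratio was −0.04, and the interval without a pseudocount, −0.13 to 0.04, includes 0.

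*Smc3*, whose protein pairs with either SMC1, lies at chr19:53600398-53645833 (plus strand). Its RPKM was 131 in control and 125 in mutant testes, from 5247 and 4832 reads. The log2 ratio was −0.08, with an interval without a pseudocount from −0.13 to −0.02, a difference of 5.11% that is small beside that of *Smc1b*.

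Among the kleisins, the meiotic genes were lower by much less than *Smc1b*. *Rec8*, the kleisin that keeps sister centromeres together through the first meiotic division, lies at chr14:55618037-55625395 (plus strand). Its RPKM was 18.2 and 15.1, counted from 340 and 274 reads. The log2 ratio was −0.25, with an interval without a pseudocount from −0.50 to −0.03, and it ranked 1482nd from the lowest of the 14831 genes tested. *Rad21l*, a kleisin of early prophase that helps homologues to pair, lies at chr2:151645404-151668533 (minus strand) and was the subunit with the lowest level. Its RPKM was 3.73 and 3.28, from 123 and 105 reads, and its interval without a pseudocount, −0.57 to 0.20, includes 0, so no difference was detectable at this depth. *Rad21*, the kleisin of dividing cells, at chr15:51962240-51991747 (minus strand), had an RPKM of 130 and 123 from 9336 and 8539 reads and a log2 ratio of −0.08 (interval −0.13 to −0.04).

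At the STAG position *Stag3* was lower and its mitotic counterparts moved little. *Stag3*, whose protein is part of all known meiotic cohesin rings, lies at chr5:138280240-138312393 (plus strand). Its RPKM was 42.1 in control and 28.2 in mutant testes, from 1943 and 1261 reads, which is 33.1% lower. The log2 ratio of −0.56 lay just inside the 1.5-fold threshold of 0.585, and the interval without a pseudocount, −0.68 to −0.48, spans that threshold. Of these 8670 better expressed genes, 76 were as low as *Stag3*, *Stag3* included. *Stag1*, at chr9:100597798-100959375 (plus strand), had an RPKM of 89.0 and 82.8 from 3934 and 3550 reads and a log2 ratio of −0.10 (interval −0.17 to −0.04). *Stag2*, at chrX:42149317-42277185 (plus strand), was the only subunit with a higher level in mutant testes, at an RPKM of 68.2 and 74.3 from 3734 and 3945 reads. Its log2 ratio was 0.12 (interval 0.06 to 0.19), and 53.7% of all genes tested were higher by any amount.

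**Figure D2:**
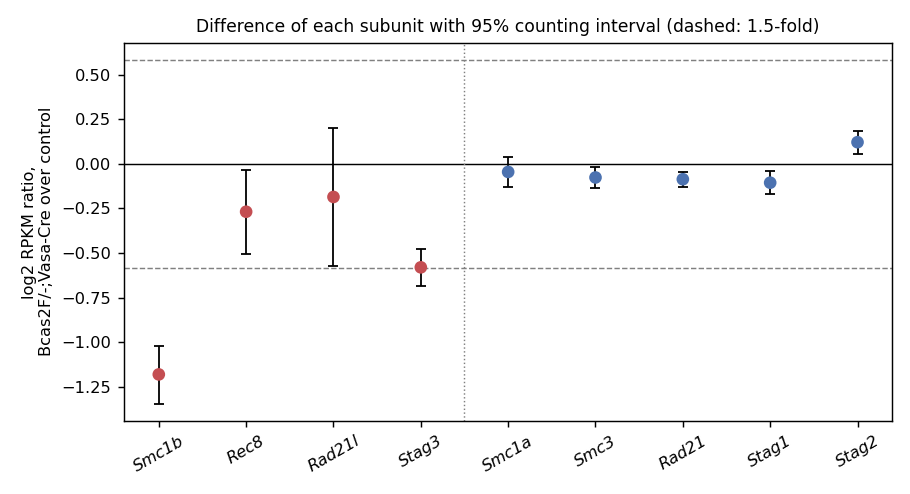
Log2 ratio of RPKM without a pseudocount, Bcas2F/-;Vasa-Cre over control, for each subunit (red meiotic, blue mitotic or shared), with 95% Clopper-Pearson intervals that cover counting error only and dashed lines at 1.5-fold. Smc1b is at −1.18 and Stag3 at −0.58, whereas the 5 mitotic or shared subunits lie between −0.11 and 0.12.

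The counting intervals, widest for *Rad21l* and *Rec8*, which had the fewest reads, leave out the spread between animals and libraries. The log2 ratios of the 8670 genes averaging 10 RPKM or more had an SD of 0.18. The values of *Smc3*, *Rad21*, *Stag1* and *Stag2* were smaller than this in size, although their counting intervals did not include 0. *Smc1b*, *Smc1a* and *Stag1* overlap processed pseudogenes on the opposite strand, and *Stag1* and *Stag2* also overlap loci annotated only as TEC, whose status as genes is unsettled. Whether strand was used in counting is not given in the sources used here. No subunit's longest transcript matched another subunit at 90% identity over at least 100 bases, and the longest match to any other gene, a processed pseudogene of *Smc3*, covered 12.7% of the transcript. Of the 417 matches found, most were short matches of *Stag3* to other genes, each covering at most 2.44% of its longest transcript. Whether reads were shared there was not tested.

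**Figure D3:**
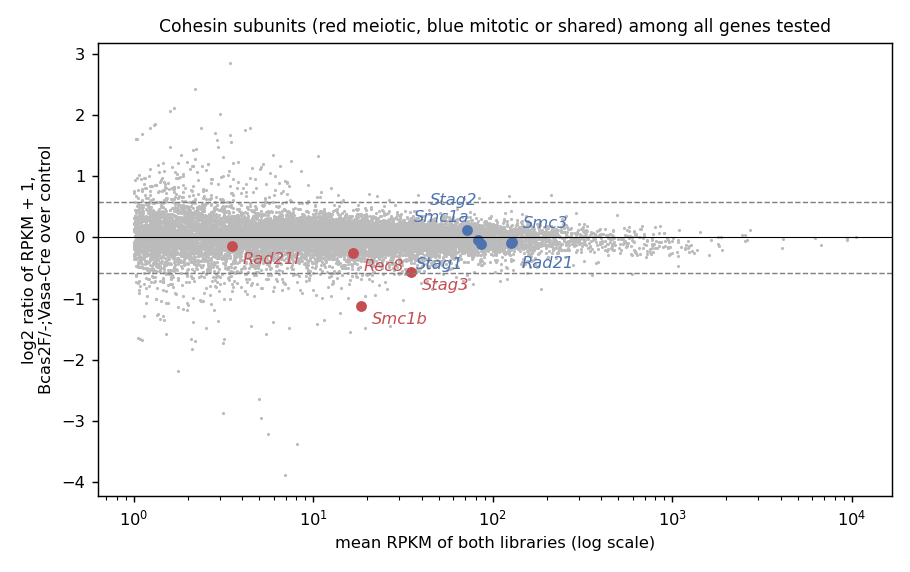
Log2 ratio of RPKM + 1, Bcas2F/-;Vasa-Cre over control, against the mean RPKM of both libraries on a log axis for 14831 genes (grey), with cohesin subunits in red (meiotic) and blue (mitotic or shared). Smc1b, at −1.11, is among the lowest genes of its level, and Stag3, at −0.56, lies by the dashed 1.5-fold line.

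Ratios within a library do not depend on how the libraries were scaled to each other, so the meiotic paralog was also set against its mitotic counterpart. The ratio of *Smc1b* to *Smc1a* in RPKM was 0.304 in control and 0.138 in mutant testes, a log2 change of −1.14 with an exact conditional 95% interval from −1.32 to −0.95. *Stag3* changed by −0.48 relative to *Stag1* (interval −0.60 to −0.35) and by −0.70 relative to *Stag2* (−0.83 to −0.58). For the kleisins the change relative to *Rad21* was −0.18 for *Rec8* (−0.42 to 0.06) and −0.10 for *Rad21l* (−0.49 to 0.29), and both intervals include 0. At the SMC1 and STAG positions the ratio thus differed between the libraries beyond counting error, and at the kleisin position no difference was detectable at this depth.

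The meiotic subunits also differed from one another. Relative to *Stag3*, *Smc1b* changed by −0.60 on the log2 scale (interval −0.80 to −0.41), and relative to *Rec8* by −0.91 (−1.20 to −0.63). *Stag3* changed by −0.31 relative to *Rec8* (−0.57 to −0.05), whereas *Rad21l* and *Rec8* did not differ detectably in their change (0.08, −0.38 to 0.54). These pairs were chosen after the values had been seen.

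Expressed as shares of a position, *Smc1b* made up 23.3% of the summed SMC1 RPKM in control (95% interval 22.0 to 24.6) and 12.1% in mutant testes (11.1 to 13.3). *Stag3* made up 21.1% (20.3 to 22.0) and 15.2% (14.5 to 16.0) of the summed STAG RPKM. *Rec8* and *Rad21l* together made up 14.4% (13.3 to 15.6) and 13.0% (11.9 to 14.3) of the summed kleisin RPKM, intervals that overlap. The length behind an RPKM value lay within 5% of the mean over a gene's GENCODE transcripts for 67.3% of genes. It was 1474 bases for *Smc1a*, whose longest transcript has 4691, and 3604 bases for *Rad21*, whose mean transcript length is 2372, so these shares depend on the annotation. With reads per kilobase of the longest transcript the shares were 32.6% and 18.0% at the SMC1 position, 25.1% and 18.2% at the STAG position and 8.87% and 8.04% at the kleisin position, each lower in mutant testes. The longest transcript of *Stag3* has no annotated coding sequence.

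**Figure D4:**
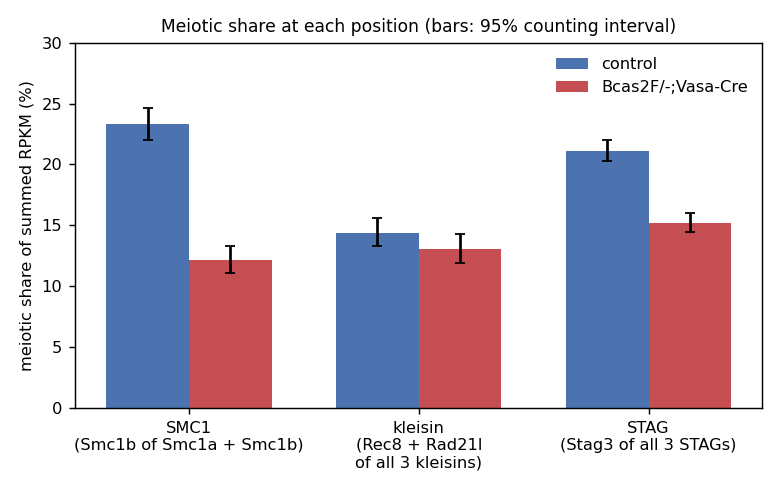
Percent of the summed RPKM at each ring position contributed by the meiotic subunits in control (blue) and Bcas2F/-;Vasa-Cre (red) testes, with 95% intervals that cover counting error only. The SMC1 share is 23.3% and 12.1%, the STAG share 21.1% and 15.2%, and the kleisin share 14.4% and 13.0%.

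Genes of proteins that load, release, modify and cut cohesin showed no common direction. Of 18 regulator genes, 16 had a mean RPKM of at least 1, of which 8 were lower and 8 higher, with a median log2 ratio of −0.02 and none past 1.5-fold. *Sgo2b* was listed at 0 in both libraries, and *Meikin*, which guards cohesion at centromeres in meiosis, had 2 and 4 reads. The lowest were *Esco2*, which acetylates SMC3 during DNA replication, with an RPKM of 53.2 and 38.7 and a log2 ratio of −0.45, and *Cdca5*, encoding sororin, which stabilises cohesin after replication, with 23.7 and 18.2 RPKM and −0.36. The loader genes *Nipbl* (13.5 and 15.1 RPKM, log2 ratio 0.15) and *Mau2* (20.7 and 24.1, 0.21) were higher. The release factor genes *Wapl* (105 and 106 RPKM) and *Pds5b* (45.6 and 45.6) differed by a log2 ratio of 0.01 and 0.00. The separase gene *Espl1* was at −0.15, the securin gene *Pttg1* at −0.21, and *Ctcf*, whose product positions cohesin along chromosomes, at 0.08.

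Most other genes of meiotic prophase were lower as well. Of 10 axis and synaptonemal complex genes, 9 were lower and 1 higher, with a median of −0.32, and *Syce3*, a central element gene, was past 1.5-fold (16.2 and 9.12 RPKM, log2 ratio −0.76). *Sycp1*, encoding the transverse filament, and *Hormad1*, encoding an axis protein that binds cohesin-based axes, were both at −0.56, the same value as *Stag3*, and without a pseudocount both were past 1.5-fold (−0.59 and −0.61). Of the 12 recombination genes that averaged 1 RPKM or more, 9 were lower and 3 higher, with a median of −0.21, and *Prdm9*, *Mei1* and *Majin* were more than 1.5-fold lower (−0.76, −0.72 and −0.59). Without a pseudocount *Iho1*, needed for break formation, was also past this threshold (−0.60). Of 4 genes of meiotic entry, *Stra8*, *Meiosin* and *Meioc* were more than 1.5-fold lower (−0.61, −0.66 and −0.95), and *Ythdc2* was at 0.04. By real-time RT-PCR of replicate testes of the same age, the paper found *Stra8* similar in both genotypes, and *Dmc1*, *Sycp1* and *Sycp3* significantly lower. No gene of these lists or of the regulators was more than 1.5-fold higher, against 1.57% of all genes tested. *Smc1b*, at −1.11, was below every gene of these lists. Without a pseudocount it was at −1.18 (interval −1.35 to −1.02), and intervals of several genes overlap this. They were *Mei1* (−1.08, −1.41 to −0.75), *Meioc* (−1.05, −1.25 to −0.85) and *Majin* (−1.01, −1.73 to −0.32). The others were *Meiosin* (−0.99, −1.40 to −0.60), *Prdm9* (−0.93, −1.27 to −0.60) and *Syce3* (−0.83, −1.23 to −0.43).

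**Figure D5:**
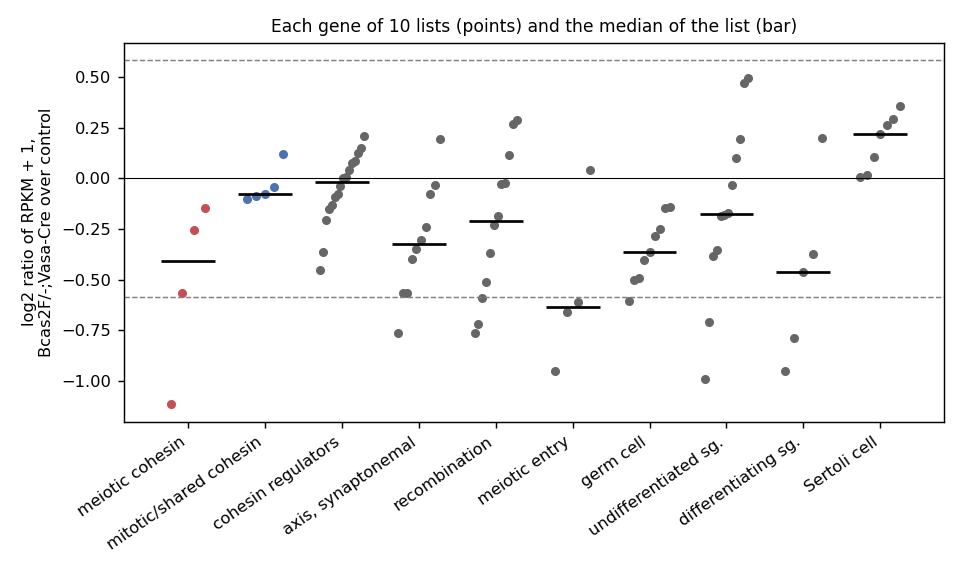
Log2 ratio of RPKM + 1, Bcas2F/-;Vasa-Cre over control, for each gene averaging at least 1 RPKM in 10 lists (sg., spermatogonia), with the median as a bar and 1.5-fold as dashed lines. The medians are −0.41 for meiotic cohesin, −0.08 for mitotic or shared cohesin, −0.37 for germ cell genes and 0.22 for Sertoli cell genes.

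All 9 germ cell genes were lower, as the meiotic subunits were, with a median log2 ratio of −0.37. Their summed RPKM was 619 in control and 481 in mutant testes, and 1 of them, *Tdrd9* (−0.60), was more than 1.5-fold lower. Of 12 genes of undifferentiated spermatogonia 8 were lower and 4 were higher (median −0.17, summed RPKM 214 and 173). The 2 more than 1.5-fold lower were *Nanos3* (−0.99) and *Sall4* (−0.71). The higher ones were *Nanos2* (0.49, from 29 and 51 reads), *Neurog3* (0.47, from 54 and 81 reads), *Etv5* (0.20) and *Id4* (0.10), named after their values were seen. Of 5 genes of differentiating spermatogonia 4 were lower and *Sohlh2* was higher at 0.20 (median −0.46, summed RPKM 160 and 116). The 2 more than 1.5-fold lower were *Rhox13* (−0.95) and *Dmrtb1* (−0.79). By real-time RT-PCR of replicate testes of the same age, the paper found several genes of these lists similar in both genotypes. They were *Ddx4* (as *Mvh*), *Dazl*, *Pou5f1*, *Nanos2*, *Neurog3* (as *Ngn3*), *Kit*, *Sohlh1* and *Sohlh2*. The 7 of 8 Sertoli cell genes that averaged 1 RPKM or more were higher (median 0.22), with a summed RPKM over the list of 1041 and 1164, and *Rhox5* was listed at 0 in both libraries. In RNA from whole testes, fewer germ cells, another mix of their stages and less RNA per germ cell cannot be told apart. The part of the germ cell share in the values of the meiotic subunits was not tested. By histology the paper could not tell the genotypes apart at P9. Shortly after P9 it found basal MVH-positive cells not significantly different in number, and spermatocytes of meiotic prophase almost absent in mutants.

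Each meiotic subunit was also set against each of the 9 germ cell genes in turn, as the log2 change of their ratio without a pseudocount. For *Smc1b* the change ran from −1.04 against *Piwil2* to −0.52 against *Tdrd9*, and all 9 counting intervals lay below 0. Against *Ddx4*, a gene expressed throughout the germline (RPKM of 96.9 and 81.4), *Smc1b* was at −0.93 (interval −1.11 to −0.76). In the spermatogonia and meiotic entry lists, not used as references, some genes were nearly as low as *Smc1b* without a pseudocount. They were *Nanos3* (−1.09, −1.44 to −0.74), *Meioc* (−1.05, −1.25 to −0.85), *Rhox13* (−1.03, −1.33 to −0.74) and *Meiosin* (−0.99, −1.40 to −0.60). Their intervals overlap that of *Smc1b* itself (−1.35 to −1.02), and the other genes of those lists were less low or higher. The intervals of *Mei1*, *Majin* and *Prdm9* of the recombination list and of *Syce3* also overlap that of *Smc1b*. For *Stag3* the outcome depended on the gene chosen. Its change ran from −0.44 against *Piwil2* (−0.58 to −0.30) to 0.08 against *Tdrd9* (−0.14 to 0.30), with 6 intervals below 0 and 3 that included 0. For *Rec8* the range was −0.12 to 0.39 and for *Rad21l* −0.04 to 0.48, and for each of them 8 intervals included 0 and 1, against *Tdrd9*, lay above it. Use of the germ cell genes as references was decided after their values had been seen.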

How the data were processed

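Whole testes of P9 mice were measured by RNA-seq, 1 control and 1 mutant library, grouped by the genotype label. The authors aligned paired-end reads with TopHat2 (2.0.9, build mm10 in the submitters' processing notes) and used HTSeq to count them by gene. The deposited values are RPKM, which corrects for the length of a gene and the depth of a library and leaves RNA composition uncorrected. The annotation release is not given in the sources used here. Entries were matched by identifier to GENCODE M21 (GRCm38), 37692 of 39695.

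Because a gene's RPKM rises in equal steps per read, read counts and depths were recovered from the values. Depth was the most frequent result over genes with 1 annotated transcript. The reads of a gene are the smallest whole pair that gives its RPKM ratio, multiplied so that the implied length is nearest the mean GENCODE transcript length, and another multiple cannot be told apart from it where the length is not known. For *Smc1b* the smallest pair was used (1031 and 441, implied length 2019 bases). Implied lengths were whole for 93.1% of 21210 genes within 0.001 bases per kilobase of length.

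Log2 ratios of RPKM + 1 were computed for genes averaging 1 RPKM or more, with thresholds of 1.5-fold and 2-fold. The pseudocount understates differences of low genes. Intervals are 95% Clopper-Pearson for a gene, exact conditional for a ratio of ratios and a normal approximation on the logit scale for a share. The procedures were tested on simulated libraries. The subunits and gene lists were chosen with earlier results of these data known. Every subunit is named, and all cohesin regulators may be named. From the other lists, genes past 1.5-fold, the 2 of highest mean RPKM or the 2 of largest log2 ratio may be named. Some further genes, such as *Piwil2*, *Etv5* and *Id4*, were named after their values had been seen or because the paper measured them. No gene was looked for by likeness of pattern, because 2 libraries give none. Alternatives were other pseudocounts, scalings and filters and a test on the reads after the model of DEGseq, which sets the 2 libraries against each other, not the genotypes. Promoter windows are from RefSeq (GRCm38.p6). BLAST 2.17.0 searched for gene copies. Python 3.11.15, numpy 2.4.6, scipy 1.17.1 and pandas 2.3.3 were used. Splicing was not analysed here.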

Additional observations from a re-analysis of the deposited data

How the results depend on the processing

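The log2 ratio of each of the 9 subunits kept its sign in all 36 recomputations with a pseudocount of 0.1 or 0.01, a median log2 ratio set to 0 or RPKM rescaled to 1000000 per library. *Smc1b* ran from −1.18 to −1.11, *Stag3* from −0.58 to −0.54 and *Rec8* from −0.27 to −0.23, and 1 subunit was past 1.5-fold under every setting, the test on reads included. The median of the meiotic subunits was −0.56 with a mean RPKM of at least 5, which leaves out *Rad21l*. Without a pseudocount 3 of 10 axis and synaptonemal genes and 4 of 12 recombination genes were more than 1.5-fold lower, against 1 and 3 as reported. Counts over all genes moved most, and the cause was not tested. Genes more than 1.5-fold lower, 251 as reported, numbered 457 and 485 with the smaller pseudocounts, 468 without a filter and 104 with a mean RPKM of at least 5. Genes more than 1.5-fold higher, 233 as reported, numbered 454 and 491 with the smaller pseudocounts, 434 with rescaled RPKM, 511 without a filter, 46 with a mean RPKM of at least 5 and 80 with the test on reads. Per longest transcript, an alternative chosen after seeing the data, the meiotic shares (control, then mutant) became 32.6% and 18.0% (SMC1), 8.87% and 8.04% (kleisin) and 25.1% and 18.2% (STAG), by the other lengths used. These also rest on the recovered reads, which for *Smc1b* and *Rec8* could be another multiple. No paired analysis was possible because each genotype had 1 library, which for the same reason could not be left out in turn.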

Other observations

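Of the other SMC complexes, all 8 condensin genes, whose products compact chromosomes, were lower, against 46.3% of all genes tested. Their median log2 ratio was −0.14, with a range from −0.36 to −0.05. None was past 1.5-fold, and some of their counting intervals included 0. The lowest was *Smc4*, with 115 RPKM in control and 89.2 in mutant testes (4147 and 3123 reads), a log2 ratio below those of *Rec8* and *Rad21l*, followed by *Ncaph2* at −0.21. Of 6 genes of the SMC5/6 complex, which acts in DNA repair, 3 were lower and 3 higher, between −0.09 and 0.09. The mitotic or shared cohesin subunits ranged from −0.10 to 0.12, and the lists were not tested against each other.

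Of the somatic lists, Leydig cell genes had a median log2 ratio of 0.20 (4 of 6 higher), peritubular myoid genes −0.05, endothelial genes −0.13, macrophage genes −0.16 and red blood cell genes −0.26 (4 lower, 1 higher). Past 1.5-fold were *Cyp17a1* of the Leydig list (0.68) and *Hbb-bt* of the red blood cell list (−1.03, RPKM of 42.4 and 20.3). *Hbb-bt* ranked 52nd from the lowest of all genes tested, near *Smc1b* (40th), whereas *Hbb-bs* was at 0.11. Why these somatic genes differed was not tested.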
